A study of Mus musculus with 6 samples.

Results

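The genes described here are 10 genes of the YAP and TEAD pathway, taken by gene symbol from a read table of 20896 transcripts. They are the coactivator genes Yap1 and Wwtr1, the DNA-binding partner gene Tead1, the kinase gene Lats2 and the regulator genes Amotl2 and Ajuba, and the target genes Ankrd1, Cyr61, Ctgf and Tgfb2. The table holds all 10, Cyr61 and Ctgf under these older symbols for Ccn1 and Ccn2, and all 10 passed the filter on low reads that left 16683 transcripts for testing. The cells were mpkCCD, a mouse line from the cortical collecting duct of the kidney. The study made clonal lines with CRISPR-Cas9: 3 clones labelled PKA dKO, read here as a double knockout of protein kinase A (PKA), stand against 3 control clones, and each clone gave 1 total RNA library. All clones grew on permeable supports for 4 days in 2% serum with insulin, dexamethasone, triiodothyronine, epidermal growth factor, selenite and transferrin, and then spent 3 days in medium without serum or hormones but with the V2 receptor agonist dDAVP at 0.1 nM. Every comparison below is therefore between clones that all received dDAVP, and a clone-specific difference cannot be told apart from one due to the edit.

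YAP, the product of Yap1, and TAZ, the product of Wwtr1, are transcriptional coactivators that enter the nucleus and bind TEAD factors, which recognise the DNA core GGAATG. The LATS kinases phosphorylate both coactivators and thereby hold them in the cytoplasm, and cyclic AMP acting through PKA is known to promote this phosphorylation in cultured cells. In epithelia the pathway responds to cell density, polarity and stretch. Because the coactivators are mostly controlled after translation, their targets Ctgf, Cyr61 and Ankrd1 are the usual transcript readout of their activity. Lats2, Amotl2 and Ajuba act on the pathway, and Lats2 and Amotl2 are themselves commonly listed as YAP targets.

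The libraries held 28596444 to 42515838 reads in the table. On a first principal component with 68.1% of the variance, control clone 1 lay at -91.7 and dKO clone 3 at -76.8, away from the other 4 libraries at 20.9 to 74.1. Prkaca, taken to be an edited gene although the labels name none, had 75.9 to 133 CPM (reads scaled to a common library size) in control clones and 6.65 to 8.49 CPM in dKO clones. All 13 markers of principal cells, the water- and sodium-transporting cells of the duct, exceeded 1 CPM in at least 1 library. So did 6 of 7 intercalated-cell, 5 of 5 proximal-tubule, 5 of 6 fibroblast, 3 of 4 endothelial and 2 of 3 leukocyte markers found. This bar therefore does not separate cell types. Summed principal-cell markers had 5350 to 6960 CPM in the controls and 5130 to 5510 CPM in dKO clones. Krt18, Cdh16 and Krt8 were the largest parts of this sum in every library, so it says little about the other markers. Aqp2, the vasopressin-regulated water channel that defines principal cells, had 140 to 399 CPM in the controls and 1.82 to 3.39 CPM in dKO clones. Aqp4 (1.18 to 10.8 against 0.140 to 0.507 CPM), Avpr2 and Krt18 were also lower without overlap. Tfcp2l1 was higher without overlap (404 to 639 against 735 to 776 CPM), and the remaining markers overlapped. Summed fibroblast and endothelial markers stayed at or below 7.66 and 5.17 CPM, and of the leukocyte markers Csf1r had 32.3 to 67.9 CPM while the others together reached at most 4.09 CPM. Summed intercalated-cell markers had 28.5 to 50.6 CPM in the controls, against 70.7 to 165 CPM in dKO clones, but without Rhcg the groups overlapped: the other 6 markers together had 26.7 to 44.6 and 18.8 to 46.8 CPM. Summed proximal-tubule markers had 311 to 407 and 699 to 865 CPM, nearly all of it Lrp2: the other 4 together reached at most 14.4 CPM in any library. The part of these 2 genes in the differences below was not tested.

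RefSeq promoters (GRCm38.p6, 250 bases before to 50 bases after the start) matched 8 of the 10 genes, and 7 of the 8 held the TEAD core GGAATG on either strand, against 14.7% of all 32851 promoters of the same length. The longer form GGAATGT, which contains the core, was in 4 of the 8, those of Yap1, Amotl2, Ajuba and Cyr61, against 3.85% of all promoters. Tead1 and Ctgf had no promoter entry and were not searched. The RefSeq start used for Amotl2 lies 136 bases inside the deposited transcript. Its core therefore lies after the deposited start, though before the RefSeq one. Ankrd1 and Ajuba held the core at 2 places and Tgfb2 at none. The promoters of the 3 target genes that stood higher in dKO clones are shown whole, because they differ in this core: it is in capitals, as GGAATG or as its reverse complement CATTCC. All 3 lie on the minus strand and read 5′ to 3′ towards the gene: Ankrd1 chr19:36119795-36120094, Cyr61 chr3:145649936-145650235 and Tgfb2 chr1:186705940-186706239.
Ankrd1: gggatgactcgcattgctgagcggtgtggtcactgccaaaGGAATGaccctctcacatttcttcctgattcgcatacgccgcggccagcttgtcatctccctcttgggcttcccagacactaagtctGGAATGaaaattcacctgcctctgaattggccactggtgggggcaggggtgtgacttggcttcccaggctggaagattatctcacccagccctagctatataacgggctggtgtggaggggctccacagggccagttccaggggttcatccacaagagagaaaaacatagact
Cyr61: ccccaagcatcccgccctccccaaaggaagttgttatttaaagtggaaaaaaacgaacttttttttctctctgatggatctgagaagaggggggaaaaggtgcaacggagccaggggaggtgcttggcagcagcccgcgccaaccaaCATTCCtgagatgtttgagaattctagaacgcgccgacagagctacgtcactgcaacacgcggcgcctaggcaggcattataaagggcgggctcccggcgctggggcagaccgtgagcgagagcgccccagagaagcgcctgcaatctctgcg
Tgfb2: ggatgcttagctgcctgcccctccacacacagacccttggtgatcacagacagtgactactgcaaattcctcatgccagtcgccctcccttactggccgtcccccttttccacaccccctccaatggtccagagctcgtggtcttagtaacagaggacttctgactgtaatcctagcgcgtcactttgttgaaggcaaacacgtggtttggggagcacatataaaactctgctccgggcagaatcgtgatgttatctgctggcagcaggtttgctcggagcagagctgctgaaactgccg

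The core began 210 and 123 bases before the start of Ankrd1 and 103 bases before that of Cyr61. For the coactivators and regulators, 30 bases around the first core are shown, since these genes hold it too although their levels differed less between the groups. They are Yap1 chr9:8004720-8004749, Wwtr1 chr3:57576029-57576058, Lats2 chr14:57746102-57746131 and Ajuba chr14:54577830-54577859 on the minus strand and Amotl2 chr9:102717727-102717756 on the plus strand.
Yap1: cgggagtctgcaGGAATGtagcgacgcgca
Wwtr1: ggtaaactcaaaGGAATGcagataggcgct
Lats2: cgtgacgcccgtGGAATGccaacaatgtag
Amotl2: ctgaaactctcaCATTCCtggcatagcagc
Ajuba: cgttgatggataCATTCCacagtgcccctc

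These matches describe letters and not bound sites, and the absence of the core from the Tgfb2 window says only that these letters are not there. Of 10 other genes of a target signature with a promoter, 3 held the core, as did 8 of 22 other pathway genes. Binding of TEAD factors was not measured.

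Per kilobase of transcript, computed from CPM and the deposited transcript length (RPKM), Ctgf, the gene of a secreted matricellular protein, was the most abundant of the 10 in control clones at 100.0 ± 4.47 RPKM (SD, n = 3). Cyr61, a related matricellular gene, followed at 76.9 ± 21.5 RPKM, next to Ajuba at 76.2 ± 13.9 and Amotl2 at 66.4 ± 7.66 RPKM. The spreads of these 3 overlapped, and that of Cyr61 also reached that of Ctgf. Below them stood Wwtr1 at 44.8 ± 7.48, Ankrd1 at 36.5 ± 10.9, Yap1 at 28.3 ± 3.40 and Lats2 at 14.9 ± 3.63 RPKM. Tead1 at 5.51 ± 2.94 and Tgfb2 at 1.51 ± 0.745 RPKM were the lowest. In dKO clones the order at the top differed: Cyr61 led with 128 ± 21.2 RPKM, then Ankrd1 with 83.0 ± 38.7 and Ctgf with 81.0 ± 20.5 RPKM. The dKO values of Ankrd1 and Ctgf overlapped.

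**Figure D1:**
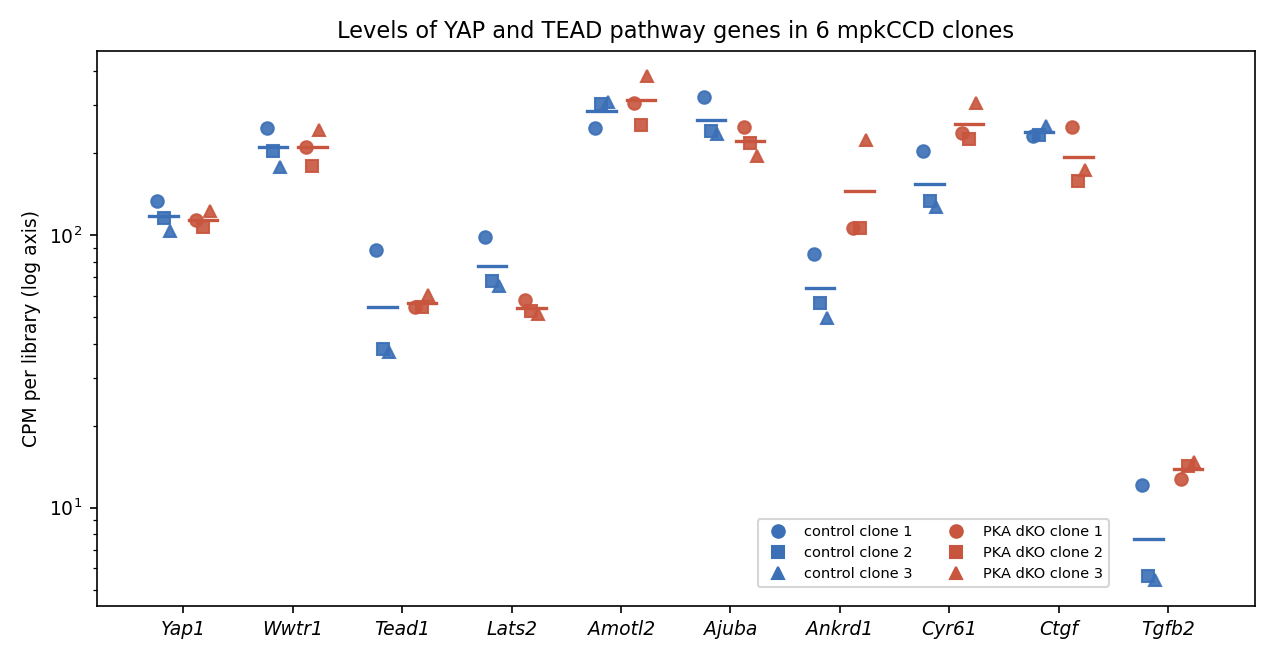
Points are CPM of single libraries on a log axis for the 10 genes, circles, squares and triangles for clones 1, 2 and 3 of the control (blue) and PKA dKO (red) groups, and lines are group means. The 3 dKO values of Ankrd1, Cyr61 and Tgfb2 lie above all control values and those of Lats2 below them; Yap1 and Wwtr1 overlap.

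The coactivator genes did not differ between the groups beyond the clone spread. Yap1 (ENSMUSG00000053110.13; chromosome 9, 7931999 to 8004596, minus strand, 9 exons) had 133, 116 and 104 CPM in control clones 1, 2 and 3, against 114, 107 and 123 CPM in dKO clones 1, 2 and 3. The dKO values lie inside the control range. Its log2 fold change, dKO against control on the scale of log2 scaled reads plus 1, was -0.04 with a 95% interval of -0.32 to 0.25 (limma-trend, unadjusted p = 0.788). Fewer cells of a kind and less RNA per cell cannot be told apart in these bulk libraries. Wwtr1 (ENSMUSG00000027803.14; chromosome 3, 57455649 to 57575828, minus strand, 7 exons) had 248, 204 and 178 CPM against 210, 179 and 243 CPM, a log2 fold change of 0.00 with an interval of -0.35 to 0.36 (unadjusted p = 0.976). The intervals leave room for changes of about 1.28-fold. The log2 ratio of Wwtr1 to Yap1 within a library was 0.83 ± 0.07 in control and 0.87 ± 0.12 in dKO clones, so the proportion of the 2 transcripts barely moved from clone to clone.

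Tead1 (ENSMUSG00000055320.17; chromosome 7, 112679320 to 112906807, plus strand, 14 exons) depended on 1 library. It had 88.5, 38.3 and 37.4 CPM in the controls, against 54.4, 54.7 and 60.3 CPM in dKO clones. Control clone 1 was the highest of the 6 and the other 2 control clones the lowest, so the groups overlap. The log2 fold change was 0.17 (SE 0.27) over all libraries. Without control clone 1 it was 0.58 (limma adjusted p = 0.0851), and with dKO clone 3 left out as well (the 4 remaining libraries) it was 0.54 (adjusted p = 0.0372).

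Of the LATS kinase and regulator genes, Lats2 was the one whose groups did not overlap. Lats2, which encodes a kinase that inactivates YAP and TAZ (ENSMUSG00000021959.16; chromosome 14, 57689662 to 57746123, minus strand, 8 exons), had 98.9, 67.9 and 65.1 CPM in the controls, against 57.7, 52.6 and 51.5 CPM in dKO clones. Every dKO value was below every control value, and control clone 1 stood well above the other control clones. The fitted level was 1.41-fold lower in dKO clones (95% interval 1.09 to 1.81), a log2 fold change of -0.49 ± 0.17 (SE), which did not pass over all transcripts (limma adjusted p = 0.491). Ajuba, the gene of a LIM protein that binds and restrains LATS kinases, lies on the same chromosome (54567469 to 54577661, minus strand). It had 321, 241 and 235 CPM against 249, 218 and 196 CPM. Its groups overlap through dKO clone 1, and the log2 fold change was -0.25 (SE 0.16, adjusted p = 0.975).

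Chromosome 14 as a whole differed between the libraries that stood apart. The median deviation of its 573 tested transcripts was 0.28, 0.13 and -0.03 in control clones 1, 2 and 3, against 0.08, 0.12 and -0.44 in dKO clones 1, 2 and 3, in log2 units. With each library's chromosome medians removed, the log2 fold change of Lats2 was -0.28 (adjusted p = 0.922) and that of Ajuba -0.05. Within the 4 other libraries Lats2 was at -0.26 and Ajuba at -0.02. With only dKO clone 3 left out, Lats2 was at -0.46 and Ajuba at -0.17. With only control clone 1 left out, they were at -0.30 and -0.11. Lats2 in dKO clone 3 (51.5 CPM) was near its level in dKO clones 1 and 2 (57.7 and 52.6 CPM). The part of the chromosome medians in the Lats2 difference was not tested. Amotl2 encodes an angiomotin-family scaffold that binds YAP, and lies on chromosome 9 (ENSMUSG00000032531.15; 102717668 to 102733418, plus strand, 10 exons). It had 248, 303 and 307 CPM in the controls, against 306, 253 and 384 CPM in dKO clones, with overlapping groups and a log2 fold change of 0.12 (interval -0.25 to 0.49). Its sign turned to -0.13 within the 4 libraries, so no direction can be given for it.

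The target genes did not move together. Ankrd1, Cyr61 and Tgfb2 were higher in each dKO clone than in any control clone, whereas the mean of Ctgf was lower, with overlapping groups. Ankrd1, which encodes a nuclear ankyrin-repeat protein first known from stretched muscle (chromosome 19, 36111965 to 36119844, minus strand), had 85.3, 56.2 and 49.8 CPM in the controls, against 106, 106 and 223 CPM in dKO clones. The value in dKO clone 3 stands out, while dKO clones 1 and 2 lay nearer to the highest control value. The fitted ratio was 2.19 (95% interval 1.42 to 3.36), a log2 fold change of 1.13 ± 0.28 (SE; limma unadjusted p = 0.00206, adjusted p = 0.231). It ranked at place 147 of 16683 by p. Without dKO clone 3 the log2 fold change was 0.78 (adjusted p = 0.308).

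Cyr61 (ENSMUSG00000028195.4; chromosome 3, 145646976 to 145649981, minus strand, 5 exons) had 204, 133 and 127 CPM in the controls, against 238, 225 and 305 CPM in dKO clones. Control clone 1 again lay nearest to the dKO clones. The fitted ratio was 1.68 (95% interval 1.26 to 2.26), a log2 fold change of 0.75 ± 0.19 (SE; unadjusted p = 0.00242, limma adjusted p = 0.247). Tgfb2, the gene of the cytokine transforming growth factor beta 2 (ENSMUSG00000039239.14; chromosome 1, 186622792 to 186705989, minus strand, 7 exons), was the lowest of the 10, with 171 to 523 reads. It had 12.1, 5.60 and 5.41 CPM in the controls, against 12.8, 14.2 and 14.7 CPM in dKO clones, so control clone 1 and dKO clone 1 nearly met. The fitted ratio was 1.93 (95% interval 1.24 to 3.00), a log2 fold change of 0.95 ± 0.29 (SE; unadjusted p = 0.00748, adjusted p = 0.419).

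Ctgf (ENSMUSG00000019997.11; chromosome 10, 24595442 to 24598678, plus strand, 5 exons) had 232, 234 and 252 CPM in the controls, against 249, 158 and 174 CPM in dKO clones. The control clones were close to each other, dKO clone 1 was at their level and dKO clones 2 and 3 were below. The fitted level was 1.26-fold lower (95% interval 0.977 to 1.63), or -0.34 ± 0.17 (SE) in log2 units (limma adjusted p = 0.876). Within a library, where scaling cancels, the log2 ratio of Cyr61 to Ctgf was -0.19, -0.82 and -0.99 in the controls, against -0.06, 0.52 and 0.81 in dKO clones. The groups do not overlap in this ratio, although control clone 1 and dKO clone 1 differ by little. The log2 ratio of Ankrd1 to Ctgf was -1.44, -2.06 and -2.34 against -1.24, -0.57 and 0.36. These ratios were chosen after their values were seen and were not tested.

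**Figure D2:**
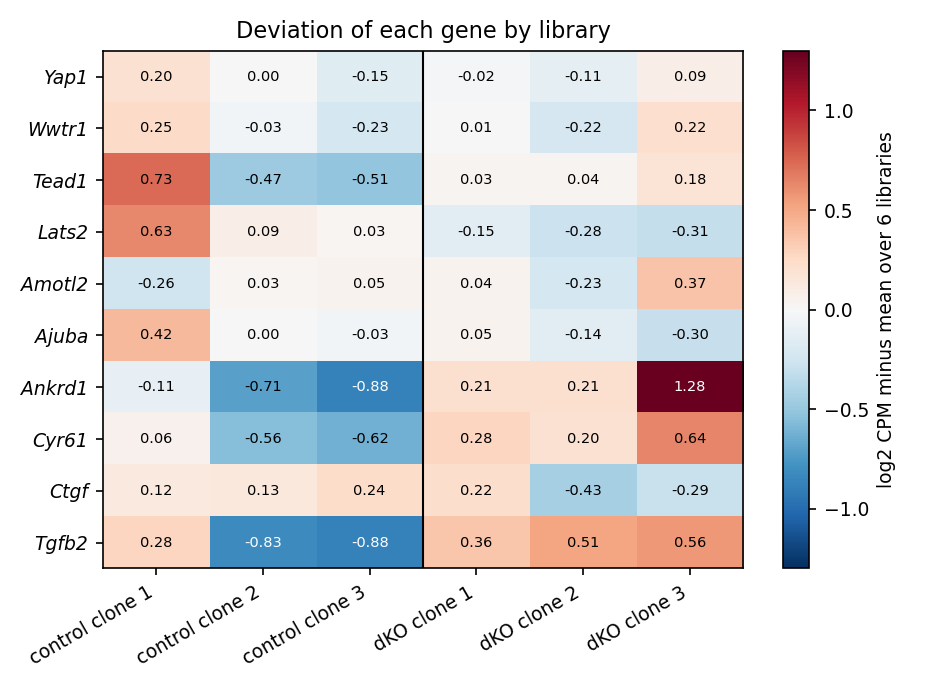
Each cell is the log2 CPM of a gene (rows) in a library (columns) minus its mean over the 6 libraries, with red above and blue below the mean. Control clones 2 and 3 are low for Ankrd1, Cyr61, Tgfb2 and Tead1, while control clone 1 lies near or above the mean of each; Ctgf is low in dKO clones 2 and 3.

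By limma-trend 0 of the 10 genes passed at a Benjamini-Hochberg adjusted p under 0.05, where 0.168% (28) of all transcripts tested did. At an unadjusted p under 0.05 there were 4, with Ankrd1, Cyr61 and Tgfb2 higher and Lats2 lower, against 6.25% of all transcripts. The same 4 were those without overlap between the groups, 3 higher where 5.17% of all transcripts were and 1 lower where 5.68% were. The median log2 fold change of the 10 was 0.06, against -0.002 over all transcripts. The genes were picked with results of these data known, so these shares describe the 10 and do not support a change of the pathway. The edgeR quasi-likelihood test on recovered reads called 0 of the 10, and DESeq2 called Cyr61.

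These counts depended on control clone 1. Without it, Ankrd1 (log2 fold change 1.36, limma adjusted p = 0.0158), Cyr61 (0.97, adjusted p = 0.00636) and Tgfb2 (1.33, adjusted p = 0.00818) passed, in a fit that called 0.836% of transcripts. Within the 4 libraries that did not stand apart, Ankrd1 (1.01, adjusted p = 1.18e-05), Cyr61 (0.85, adjusted p = 1.07e-04), Tgfb2 (1.29, adjusted p = 5.30e-04) and Tead1 passed, in a fit that called 3.00% of transcripts with 2 clones per group. With the split of the libraries as a term, Ankrd1 (adjusted p = 0.00454) and Cyr61 (adjusted p = 0.0186) passed, where 0.426% did. The split follows the first principal component of these same libraries. Control clone 1 was also the control nearest to the dKO clones for Ankrd1, Cyr61 and Tgfb2. The fits without it or with the split are therefore no separate support for a difference in these genes. Over all 22 alternatives the log2 fold change of Ankrd1 ran from 0.78 to 1.36 with an adjusted p of 1.18e-05 to 0.348, that of Cyr61 from 0.63 to 0.97 with 1.07e-04 to 0.842, and that of Tgfb2 from 0.75 to 1.33 with 5.30e-04 to 0.912. The sign of these 3, and of Lats2, Ajuba and Ctgf, did not turn in any of them. All alternatives use the same libraries or a part of them. For Ankrd1, Cyr61, Tgfb2 and Lats2, whose groups do not overlap, leaving libraries out could hardly turn the sign.

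**Figure D3:**
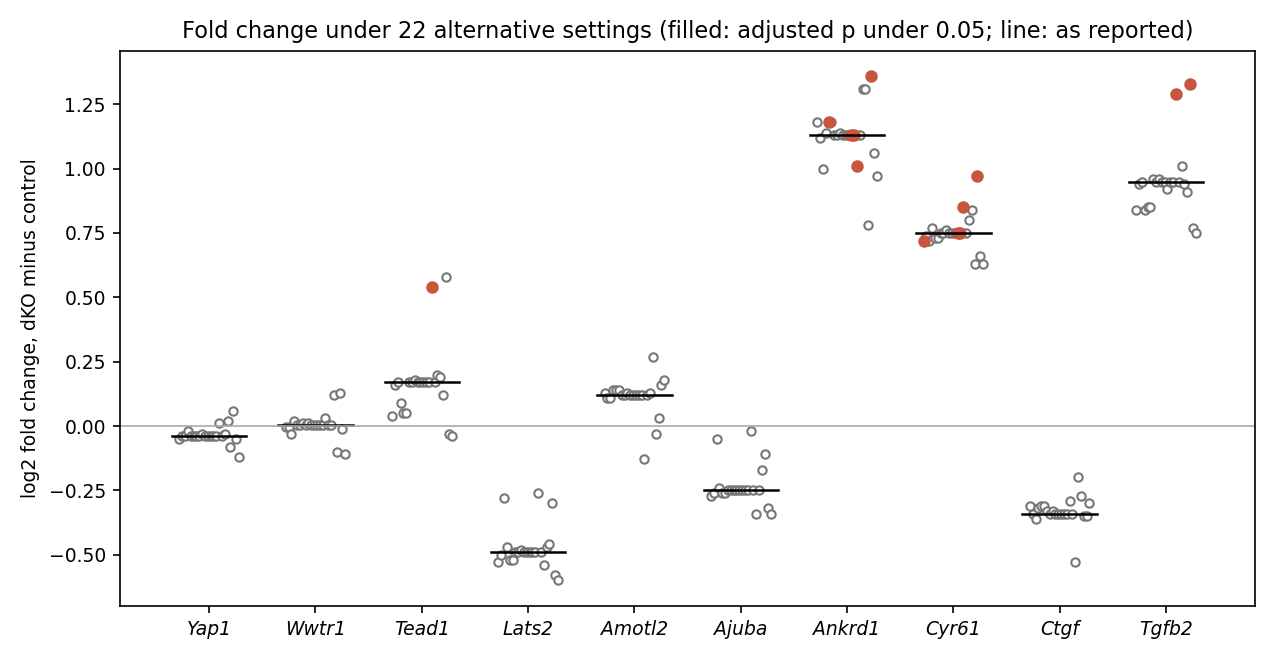
For each gene, points are the log2 fold change (dKO minus control) under each of the 22 alternative settings, filled red where the adjusted p is under 0.05, and the line is the value as reported. Ankrd1 and Cyr61 pass in 5 settings each, Tgfb2 in 2 and Tead1 in 1. Yap1, Wwtr1, Tead1 and Amotl2 lie on both sides of 0.

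The authors' deposited table of edgeR results lists all 10 genes among its 10190 transcripts. At a false discovery rate under 0.05 it holds 4 of them, where 3.47% of its transcripts pass. In the authors' deposited table Ankrd1 has a log2 fold change of 1.16 (false discovery rate 1.30e-04) and Cyr61 one of 0.72 (4.16e-04). Tgfb2 there has 0.86 (0.0488) and Lats2 -0.52 (0.0319), while Ctgf has -0.33 (0.429) and Yap1 -0.06 (0.938). These are the same 4 genes, in the same directions, as at an unadjusted p under 0.05 above, from the same 6 libraries. The fold changes are close to those fitted here, and the calls differ. The tables also differ in how many transcripts were tested. On the authors' transcripts alone, limma-trend called 0 of the 10. Its adjusted p was 0.181 for Ankrd1, 0.187 for Cyr61, 0.267 for Tgfb2 and 0.35 for Lats2. Why the calls differ was not tested. An edgeR exact test on the recovered reads, added after the data were seen, called Ankrd1 (adjusted p = 0.0167) and left Cyr61 at 0.0549, Lats2 at 0.294 and Tgfb2 at 0.304.

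Over the 6 libraries the 10 genes fell into sets that varied alike, given here as a description over 6 points that share library depth and the 2 libraries standing apart. Yap1 and Wwtr1 had a Pearson r of 0.96 in log2 CPM. Ankrd1 and Cyr61 (r = 0.96), Cyr61 and Tgfb2 (0.96) and Ankrd1 and Tgfb2 (0.86) formed a second set. Lats2 and Ajuba, both on chromosome 14, had an r of 0.93. Ctgf was opposed to the second set, with an r of -0.66 to Ankrd1, -0.60 to Cyr61 and -0.61 to Tgfb2, and of 0.05 to Yap1. Yap1, Wwtr1 and Tead1 followed the first principal component most closely (r = -0.79, -0.83 and -0.82), being higher in the libraries that stood apart, whereas Ctgf did not (0.13).

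A published signature of 22 YAP and TAZ targets from tumours, which includes 6 of the 10 genes, gives the wider target readout. All 22 were tested. Dock5 alone passed, and it was lower in dKO clones. Dock5, an exchange factor for the GTPase Rac, had 115, 94.2 and 83.5 CPM in the controls, against 53.5, 48.3 and 37.7 CPM in dKO clones, with no overlap and a 2.10-fold lower fitted level (interval 1.63 to 2.70; log2 fold change -1.07, limma adjusted p = 0.0373). It too lies on chromosome 14, and with chromosome medians removed it still passed at -0.86 (adjusted p = 0.0227). Its call was lost in the fits without dKO clone 1, 2 or 3 (adjusted p = 0.0535, 0.104 and 0.0554), without TMM factors (0.0506) and on deposited FPKM (0.171). The log2 fold change was -1.18, -1.10, -0.92, -1.06 and -1.01 in these 5 settings. Gadd45a, a stress-induced gene that restrains the cell cycle, had 27.9 ± 6.22 CPM (SD, n = 3) in the controls and 15.9 ± 1.74 CPM in the dKO clones, without overlap (log2 fold change -0.79, adjusted p = 0.202). It lies on chromosome 6, whose median deviation in dKO clone 3 was -0.40; with chromosome medians removed it stood at -0.62 (adjusted p = 0.321). Gadd45a passed in 5 of the 22 alternatives, among them DESeq2 (adjusted p = 0.0116), the fit without control clone 1 (0.0404) and the 4 libraries (0.00793).

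The signature as a list had 10 positive and 12 negative fold changes and a median of -0.075, against -0.002 for all transcripts. Without the members, 6 of 16 were positive, with a median of -0.138. Among these, Igfbp3, Foxf2, Ccdc80 and Nt5e had group means of at most 1.42 CPM and wide intervals (Igfbp3 -2.06 to 1.48). They enter these counts and medians, although their signs say little. At an unadjusted p under 0.05, 4 of the 22 were higher, namely Ankrd1, Cyr61, Tgfb2 and the kinase gene Nuak2, and 3 lower, Dock5, Gadd45a and Lats2, where 6.25% of all transcripts passed in either direction. The genes of this list thus stood on both sides. Myof, F3 and Axl, targets that encode a membrane-repair protein, tissue factor and a receptor tyrosine kinase, were at 0.00, 0.02 and 0.16. Rbms3, Crim1, Ptpn14 and Arhgef17, each with a higher control mean than Axl, were at -0.37, -0.23, -0.17 and -0.04, with intervals that include 0.

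**Figure D4:**
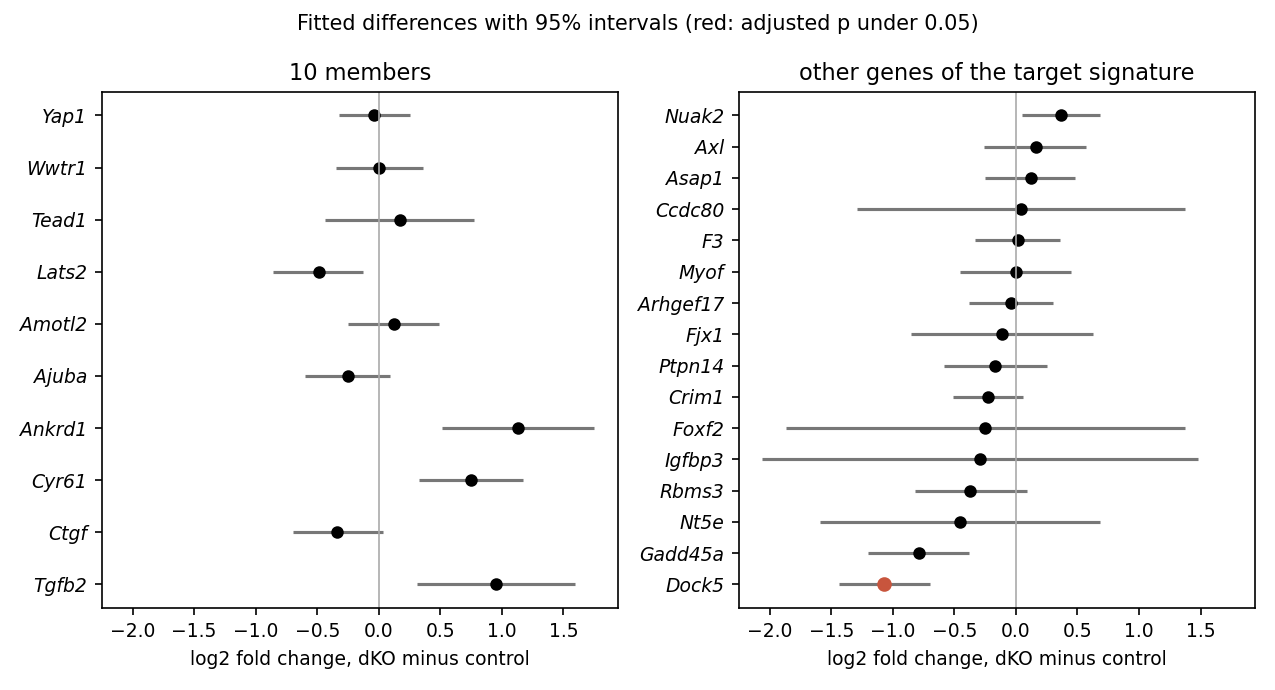
Points are fitted log2 fold changes (dKO minus control) with 95% intervals for the 10 members (left) and the 16 other genes of the target signature (right), red where the adjusted p is under 0.05. Only Dock5 is red; the intervals of Ankrd1, Cyr61, Tgfb2, Lats2, Nuak2 and Gadd45a leave out 0 without passing over all transcripts.

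Of the other genes of the Hippo pathway, 31 were listed and 28 tested, 1 of which (Ptpn14) is also in the signature. By limma-trend 0 passed, against 0.168% of all transcripts, 2 had an unadjusted p under 0.05, both lower, against 6.25%, and the median log2 fold change was -0.062. The groups did not overlap for 1 gene higher in dKO clones, Nf2 (merlin, which activates LATS; 0.13, interval -0.13 to 0.38), and for 6 lower, where 5.17% and 5.68% of all transcripts were so. The quasi-likelihood test called 0 and DESeq2 called 1, Vgll1. Among 11 upstream regulators, Taok3, a kinase able to activate the MST kinases, had the lowest p (log2 fold change -0.45, SE 0.26, adjusted p = 0.939, and -0.14 without control clone 1), followed by the protocadherin gene Fat1 (-0.27, SE 0.23). Fat1 had 1170 CPM in control clone 1 and 568 to 659 CPM in the other 5 libraries, and without that clone its log2 fold change was 0.05. In the kinase cassette, Stk3, which encodes the MST2 kinase that activates LATS, had 69.4, 69.6 and 66.0 CPM in the controls, against 51.1, 55.2 and 58.5 CPM in dKO clones (-0.32, SE 0.12, limma adjusted p = 0.615). Its chromosome is 15, and with chromosome medians removed it stood at -0.19. Mob1a, a LATS cofactor, was at -0.25, or -0.08 with chromosome medians removed and -0.04 within the 4 libraries. Lats1, the partner kinase of Lats2, was steady at 186 to 207 CPM in all 6 libraries. Of the scaffolds, Ptpn14 was at -0.17 and Amot at -0.15, with intervals that include 0.

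The TEAD factors themselves were all transcribed. In control clones Tead2 was the highest per length at 47.6 RPKM, followed by Tead3 at 24.6, Tead4 at 13.2 and Tead1 at 5.51 RPKM. Tead4 had 40.9, 41.1 and 38.6 CPM in the controls, against 35.3, 33.3 and 34.5 CPM in dKO clones, without overlap (log2 fold change -0.23, SE 0.13, limma adjusted p = 0.934). It lies on chromosome 6, whose median deviation in dKO clone 3 was -0.40. With chromosome medians removed Tead4 was at -0.06, and without dKO clone 3 at -0.22. Vgll1, whose product binds TEAD factors in place of YAP, had the largest difference of the pathway genes, at a low level. It had 61, 89 and 114 reads in control and 22, 6 and 8 reads in dKO clones, or 1.69, 2.91 and 2.63 CPM against 0.548, 0.190 and 0.224 CPM. The fitted level was 6.95-fold lower in dKO clones (95% interval 2.91 to 16.6), a log2 fold change of -2.80 ± 0.57 (SE), which did not pass (limma adjusted p = 0.114). It passed in 7 of 21 alternatives, among them the fit without control clone 1 (-3.03, adjusted p = 0.0354) and the 4 libraries (-2.88, adjusted p = 6.16e-04).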

How the data were processed

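The authors' read columns are called read counts in the header, but they are a signal scaled by the authors to a common total: each library has 1 step of which its values are multiples, and reads recovered from it were whole for 100% of values (tolerance 0.01 scaled reads). Per the file headers, FPKM values are also deposited, and the authors' comparison table gives log2 fold changes, p-values and false discovery rates. HOMER 4.8, STAR 2.5.2a, edgeR, SAMtools and the build GRCm38.p5 are named in the submitters' processing notes. Whether counting used strand is not stated there, so overlapping genes cannot be told apart. Libraries were stranded and depleted of ribosomal RNA, per the labels' protocols.

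In R 4.3.3, limma-trend (limma 3.58.1) was run on log2 scaled reads divided by TMM factors (edgeR 4.0.16; 0.909 to 1.07) plus a pseudocount of 1, with group as the only term, after filterByExpr on recovered reads (minimum 10 reads, total 15). P-values were adjusted by Benjamini-Hochberg over the 16683 transcripts tested, and the script was tested on simulated data. CPM use TMM-adjusted recovered reads. DESeq2 1.42.0 was an alternative. Each clone gave 1 library, so p-values measure the spread between these clones. Coordinates are those of the deposited table (GRCm38) and exon counts are from GENCODE M21, in which the transcripts of Ankrd1 and Ajuba have other versions and ends. Promoters are RefSeq's, with the start nearest the deposited one.

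The 10 genes and the lists were chosen with earlier results of these data known. Named besides them are the genes of each list past the threshold and the 2 of each list or role with the lowest p. Nf2, Nuak2, Myof, F3, Axl, Rbms3, Crim1, Arhgef17, Lats1, Tead2 and Tead3 were named after their values were seen. Wwc1, Wwc2 and Vgll4 were not analysed here.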

Additional observations from a re-analysis of the deposited data

How the results depend on the processing

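The count of transcripts past the threshold, 28, was 17 without TMM factors, 209 with DESeq2, 156 with the edgeR exact test (chosen after seeing the data), 91 on deposited FPKM, 196 with the replicate block, 518 within the 4 libraries, 71 with the split as a term, and 11 to 146 with 1 library left out. Of the 10 members, 0 as reported, there were 1 with DESeq2, 1 with the exact test, 2 with the replicate block, 4 within the 4 libraries, 2 with the split as a term, and 0 to 3 with 1 library left out. Of the signature, 1 as reported, there were 0 without TMM factors, 0 on FPKM, 3 with DESeq2, 3 with the exact test, 4 with the replicate block, 5 within the 4 libraries, 3 with the split as a term, and 0 to 5 with 1 library left out. Of the other pathway genes, 0 as reported, 1 (Vgll1) passed with DESeq2, the exact test, FPKM, the replicate block, the 4 libraries and the split as a term, and 0 to 1 with 1 library left out. The cause of these moves was not tested. Of 21 genes followed through the alternatives, the sign turned in at least 1 for Yap1, Wwtr1, Tead1, Amotl2, Fat1, Amot and Ptpn14. With 1 library left out the log2 fold change ran from -0.12 to 0.06 for Yap1, -0.11 to 0.13 for Wwtr1, -0.04 to 0.58 for Tead1, -0.03 to 0.27 for Amotl2, -0.48 to 0.05 for Fat1, -0.25 to 0.02 for Amot and -0.34 to 0.02 for Ptpn14. Within the 4 libraries it was 0.01 for Yap1, -0.13 for Amotl2 and 0.06 for Fat1. Wwtr1 was at -0.003 with DESeq2 size factors, -0.004 with DESeq2 and -0.03 with chromosome medians removed. Deviations of same-numbered clones correlated at -0.36, 0.64 and -0.34, and those of control clone 1 and dKO clone 3 at 0.66. These values gave no sign of a pairing by clone number. The 2 libraries that stood apart weigh on them, so they cannot show whether a smaller pairing exists. As far as the labels say, the replicate block shares only a number. The fit on the transcripts of the authors' table was also chosen after seeing the data. Each of the 10 members had at least 171 recovered reads in every library, and Vgll1 as few as 6.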

Other observations

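The pattern of the 3 classic targets combined, as the mean standardised log2 CPM of Ankrd1, Cyr61 and Ctgf, was 0.14, -0.52 and -0.52 in control clones 1, 2 and 3, against 0.54, -0.27 and 0.64 in dKO clones 1, 2 and 3. Ctgf was opposed to Ankrd1 (r = -0.66) and Cyr61 (r = -0.60), so this mean mixes opposed patterns. In dKO clone 2 it is negative although Ankrd1 and Cyr61 there exceed every control clone. Likeness to this mean is therefore not likeness to each target. Among 9518 transcripts with a mean of at least 5 CPM, those most like it over the 6 libraries were Ppap2a and Fan1 (r = 0.999), Loxl4 and Gpr125 (0.995) and Ypel1 (0.988), and those most opposed were Adck3 (-0.992), Lyrm5 (-0.957) and Ddb2 (-0.940). An r over 0.9 was reached by 216 transcripts, which with 6 points sharing the libraries that stood apart is a description only. Loxl4, a lysyl oxidase gene acting on extracellular matrix, had 32.8, 24.7 and 23.6 CPM in the controls, against 40.5, 28.3 and 43.6 CPM in dKO clones (log2 fold change 0.46, limma adjusted p = 0.711), and none of these 8 genes passed.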
